A study of Mus musculus with 2 samples.

Results

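The 4 Hox clusters of the mouse were examined for histone marks that differed between mesenchymal stromal cells with and without Dicer. The events of 6 deposited lists were taken that lay in fixed windows of mouse build mm9. The windows, 130 to 200 kb long and 645 kb in all, enclose HoxA on chromosome 6, HoxB on chromosome 11, HoxC on chromosome 15 and HoxD on chromosome 2 with their flanks. Their 5' edges follow from the positions and distances given with the events. The windows held 43 of the 21418 events of all lists: 29 in HoxC, 12 in HoxA, 2 in HoxD and 0 in HoxB. The 38 Hox genes considered comprise 10 of HoxA, 10 of HoxB, 9 of HoxC and 9 of HoxD. An event is a point to which the peak software assigned reads, with more of them, after scaling, in 1 genotype than in the other. Reads of the lower genotype are given after the software had scaled them to the library of the higher.

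The cells were monoclonal immortalized lines, called MSCs in the culture protocol and fibroblasts in the sample titles, either Dicer knockout (KO) or Dicer wild type (WT), both grown in Alpha-MEM with serum. How many clones stand behind each genotype is not given, so clone and genotype cannot be told apart. Chromatin immunoprecipitation and sequencing gave 1 list per mark and direction for H3K27ac, H3K4me3 and H3K36me3. Replicates of H3K27ac had been pooled in the deposited lists. The labels describe 1 sample per genotype, for H3K27ac only, and every list holds 1 value per genotype, so no replicate error can be given and no test between genotypes was made. Intervals below are 95% exact intervals that cover counting error only. The lists hold differences and not levels over the genome, so the labelled cell type could not be checked against its markers.

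Hox genes encode homeodomain transcription factors that specify position along the body axis, and stromal cells in culture keep a record of their anatomical origin in which Hox genes are active. Genes at the 3' end of a cluster carry low numbers and pattern anterior regions, and genes at the 5' end carry high numbers and pattern posterior and distal structures such as the hand, foot and tail. H3K4me3 marks promoters and spreads widely over active Hox clusters, H3K27ac marks active promoters and enhancers, and H3K36me3 follows the transcribed bodies of genes. Silent Hox genes are held by Polycomb complexes, which no list here measures.

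Dicer cuts hairpin precursors into mature microRNAs, and the Hox clusters hold several such genes of their own. Their mature sequences, from RefSeq (GRCm38.p6), are shown because they are Dicer products encoded among the genes examined, with the seed (bases 2 to 8) in capitals. The lists measure no microRNA.
mmu-miR-196a-5p: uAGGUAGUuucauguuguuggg
mmu-miR-196b-5p: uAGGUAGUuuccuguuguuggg
mmu-miR-10a-5p: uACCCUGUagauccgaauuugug
mmu-miR-10b-5p: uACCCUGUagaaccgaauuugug
mmu-miR-615-3p: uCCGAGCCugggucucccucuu
The miR-196 sequences share a seed, as do the miR-10 sequences. In RefSeq gene order, Mir196b stands between Hoxa9 and Hoxa10, Mir196a-1 beside Hoxb9, Mir196a-2 between Hoxc10 and Hoxc9, Mir10a and Mir10b beside Hoxb4 and Hoxd4, and Mir615 beside Hoxc5. Among the best known targets of miR-196 is Hoxb8.

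No annotation in mm9 was used, so events are placed by their distance from the 5' edge of their window and not assigned to single genes. The 5' edge is the side on which the gene of highest number stands in RefSeq gene order. That is the side of Hoxa13, at the higher coordinates of HoxA, and of Hoxb13, Hoxc13 and Hoxd13, at the lower coordinates of the other windows. The 5' and 3' sides of a window are separated at its midpoint.

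Across the windows, 40 of 43 events were higher in WT, against 49.7% of all listed events. Of these 40, 39 lay on the 5' side of HoxC or HoxA. The marks differ in their share over all listed events, so the pooled count depends on the mix of marks. For H3K27ac, 8 of 9 events were higher in WT (88.9%, 51.8 to 99.7), against 17.5% of all listed H3K27ac events. For H3K4me3, 22 of 24 were higher in WT (91.7%, 73.0 to 99.0), against 88.2% of all listed events, so this share was close to that of the mark as a whole. For H3K36me3, 10 of 10 were higher in WT (69.2 to 100), against 66.2% of all listed events, and 0 of 10 were higher in KO, against 33.8%. The intervals treat neighbouring events as independent. Merged within 5 kb, the WT events formed 5, 6 and 3 regions for H3K27ac, H3K4me3 and H3K36me3. The differences from the whole series are descriptions and were not tested.

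**Figure D1:**
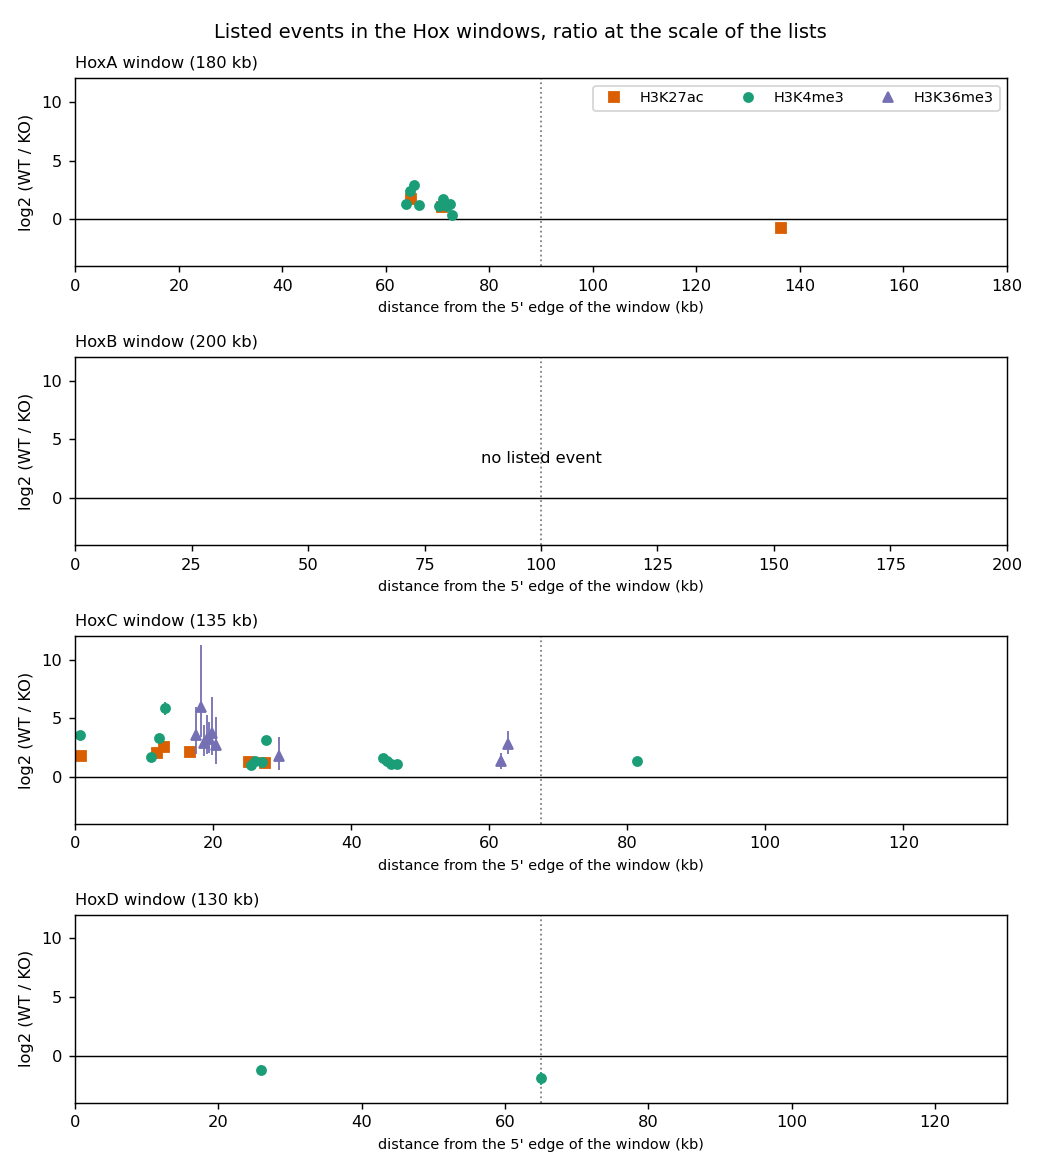
Each point is a listed event, placed by its distance in kb from the 5' edge of its window (x) and by the log2 ratio of WT to KO reads at the scale of the lists (y). Vertical bars are 95% counting intervals, dotted lines are window midpoints, and negative values are events higher in KO. The HoxC events crowd towards the 5' edge, 9 H3K4me3 and 2 H3K27ac events of HoxA lie between 64.0 and 72.8 kb, HoxB is empty, and both HoxD events are below 0.

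HoxC held the most events, 13 of H3K4me3, 10 of H3K36me3 and 6 of H3K27ac, and all 29 were higher in WT. That is 215 events per Mb, against 8.39 per Mb over 20 chromosomes, the autosomes and X. Both densities count the events of a run singly, and the second is not matched for gene content. Merged within 5 kb, the HoxC events formed 5 H3K4me3, 3 H3K36me3 and 3 H3K27ac regions. A merged density of the series was not computed. On the whole of chromosome 15, the share of events higher in WT was 12.7% for H3K27ac, 84.0% for H3K4me3 and 72.7% for H3K36me3. From the 5' end the genes of this cluster run from Hoxc13, a regulator of hair and nail keratin genes, through Hoxc12, Hoxc11, Hoxc10, Hoxc9, Hoxc8, Hoxc6 and Hoxc5 to Hoxc4.

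H3K4me3 in HoxC lay in 3 groups of neighbouring events and 2 single events. The event nearest the 5' edge, at 102740775, had 528 WT reads against 44.7 KO reads, a ratio of 11.8 (9.49 to 14.8). The group at 102750985 to 102752989 had 2953 WT reads and 343 KO reads, a ratio of 8.60 (7.93 to 9.33). It contains the event with the largest −log10 q of the Hox windows. At 102752120 the WT cells had 1589.9 reads and the KO cells 157.5, a ratio of 10.1 (8.97 to 11.4), and this event ranked 10 of 5542 in its list by q value. Beside it, at 102752989, 805 WT reads stood against 14.1 KO reads, a ratio of 57.1 (39.4 to 83.5). These 14.1 scaled reads were 31 reads before scaling.

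The other H3K4me3 groups of HoxC differed less. From 102765543 to 102767653, 4 events had 2232 WT reads and 709 KO reads, a ratio of 3.15 (2.95 to 3.36). The event at 102767653 stood apart, with a ratio of 8.71 (7.43 to 10.2), while its 3 neighbours had ratios of 1.98 to 2.5. From 102784645 to 102786609 a further 4 events had the most H3K4me3 reads of the HoxC groups in both genotypes, 4431 in WT and 1890.3 scaled in KO. Their ratio was 2.34 (2.25 to 2.45), and the tallest of them, at 102786609, had 1674 WT reads and 760 KO reads. The last event, at 102821352, was the only one of HoxC on the 3' side, with 272 WT and 104 KO reads and a ratio of 2.61 (2.18 to 3.13).

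The H3K4me3 ratio of HoxC was thus 11.8, 8.60, 3.15, 2.34 and 2.61 from the 5' edge inwards. The intervals of the groups at 11 to 13 kb and at 25.5 to 27.7 kb from the edge did not overlap, and those of the group at 44.6 to 46.6 kb and the event at 81.4 kb did. Single events did overlap, with ratios of 3.25 to 57.1 at 11 to 13 kb and 1.98 to 8.71 at 25.5 to 27.7 kb. A deposited column of expected reads, whose meaning is taken from its name and values, is called background here. Relative to this background of each genotype on the chromosome, the ratios from the 5' edge inwards were 6.60, 4.80, 1.76, 1.31 and 1.46. On that scale the mean KO event stood at 0.634, 1.62, 2.51, 6.70 and 1.48 times background in these places and the mean WT event at 4.18, 7.79, 4.42, 8.77 and 2.15 times. As means, the KO reads were above background everywhere but at the first of these places.

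H3K27ac in HoxC was listed at 6 places, the farthest of them 27.5 kb from the 5' edge. At 102740824 there were 289 WT reads and 85.3 KO reads (ratio 3.39, 2.63 to 4.41). At 102751849 there were 357 and 85.1 (4.20, 3.27 to 5.42), and at 102752903 there were 348.5 and 58.2 (5.99, 4.49 to 8.18). At 102756693, the event of this window with the most H3K27ac reads and the largest −log10 q, there were 652 and 153 (4.26, 3.54 to 5.15). The pair furthest from the edge differed less, with 563 and 232 reads at 102765167 (2.43, 2.07 to 2.86) and 569 and 244 at 102767505 (2.33, 2.0 to 2.74). In KO all 6 events were below the chromosome's background (expected) reads, at 0.190 to 0.794 times background, and in WT all were above, at 1.21 to 2.74 times. A value below background does not show that the mark was absent. The higher genotype was above background at every H3K27ac and H3K4me3 event of the windows, which may be a condition of listing.

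H3K36me3 in HoxC formed a run of 7 events at 102757586 to 102760438, which began 17.6 kb from the 5' edge. The run had 483 WT reads and 42.4 KO reads, a ratio of 11.4 (7.62 to 17.8). Its single ratios ran from 6.67 to 60.8, and the largest, at 102758295, rested on 1 read in KO, so its interval reached from 10.7 to 2420. The event with the second largest −log10 q, at 102759426, had 91.5 WT reads and 9.4 KO reads (9.73, 4.0 to 25.3). A weaker event lay at 102769518, with 36 WT reads and 10.2 KO reads (3.53, 1.48 to 10.3). The remaining pair stood apart, at 102801727 with 99 and 39 reads (2.54, 1.60 to 4.19) and at 102802674 with 134 and 18.7 reads (7.18, 3.89 to 14.7). The last of these had the most reads and the largest −log10 q of the 10 events. Read numbers of H3K36me3 were low, and 4 of the 10 events had a −log10 q of at least 5.

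**Figure D2:**
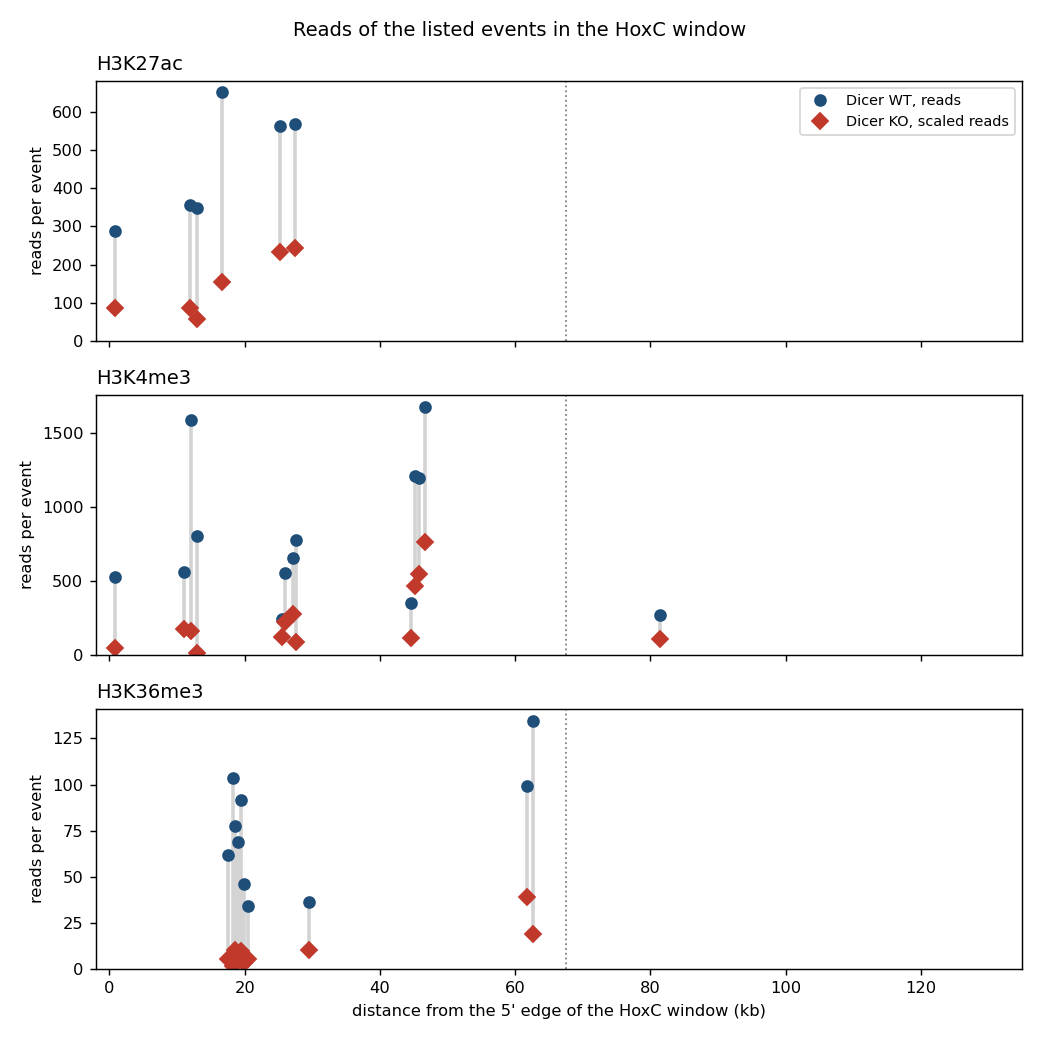
For each mark, reads per event (y) in the HoxC window are plotted against distance in kb from its 5' edge (x), as WT reads (circles) and KO reads scaled to the WT library (diamonds), 1 pooled or single value per genotype without error bars. Grey lines join the values of an event and the dotted line is the midpoint. WT lies above KO in all 29 events, and the run of 7 H3K36me3 events lies between the H3K4me3 groups at 11 to 13 kb and 25.5 to 27.7 kb.

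In HoxC the run of 7 H3K36me3 events filled part of the gap between neighbouring H3K4me3 groups, and the nearest H3K4me3 event to any of the 10 H3K36me3 events was 1865 bp away. Thus 0 of 10 had H3K4me3 of the same direction within 1 kb (0 to 30.8%), against 5.96% of all WT-higher H3K36me3 events, a share that this interval includes. With H3K27ac, 1 of 10 had such a neighbour (0.253 to 44.5%), against 1.20% in the series, which this interval also includes. It was the event at 102757586, which lay 893 bp from the H3K27ac event at 102756693.

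H3K27ac and H3K4me3 did lie together. Of the 8 H3K27ac events higher in WT, 7 had a WT-higher H3K4me3 event within 1 kb (87.5%, 47.3 to 99.7), against 13.2% of all WT-higher H3K27ac events. The distances were 49 to 376 bp, with a median of 148 bp. Of the 22 WT-higher H3K4me3 events, 14 had WT-higher H3K27ac within 1 kb (63.6%, 40.7 to 82.8), against 7.07% in the series, and the group at 102784645 to 102786609, which had the most H3K4me3 reads of the HoxC groups, had its nearest H3K27ac event 17140 bp away. No neighbour of the opposite direction was found within 1 kb, which also held for nearly the whole series. There, 0 of 1765 WT-higher H3K27ac and 3 of 5542 WT-higher H3K4me3 events had one. Among the 7 pairs the H3K4me3 ratio was the larger in 6 at the scale of the lists and in 4 relative to own background.

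In HoxA the events higher in WT lay in a single stretch. All 9 H3K4me3 events and both WT-higher H3K27ac events lay at 52202223 to 52211001, on the 5' side of the window, 64.0 to 72.8 kb from its 5' edge. From the 5' end the genes of HoxA begin with Hoxa13, which patterns the hand, foot and genital tubercle, Hoxa11, which patterns the forearm and lower leg, and Hoxa10 and Hoxa9. The 9 H3K4me3 events had 5526 WT reads and 1896 KO reads, a ratio of 2.91 (2.80 to 3.04). No H3K36me3 event was listed in HoxA, and the nearest was 608 kb below the window.

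Within this stretch of HoxA the block nearer the 5' edge differed more. Events at most 2 kb apart, a distance chosen after the values were seen, fell into 2 blocks. The block at 52208575 to 52211001 held 4 events with 2619 WT reads and 618 KO reads, a ratio of 4.24 (3.97 to 4.53). The block at 52202223 to 52204681 held 5 events with 2907 and 1278 reads, a ratio of 2.27 (2.16 to 2.40). Relative to own background these ratios were 2.64 and 1.42.

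The higher ratio of the nearer block came with 2 of its 4 events. At 52209435 there were 854 WT reads and 114 KO reads (7.48, 6.48 to 8.64), and at 52210220, the event with the most reads, 1032 and 195 (5.30, 4.72 to 5.94). The other events of that block had ratios of 2.26 at 52208575 and 2.49 at 52211001, below the 3.27 at 52203962 in the block farther from the edge. The weakest H3K4me3 event, at 52202223, had 271 and 216 reads, a ratio of 1.25 (1.08 to 1.46), and relative to own background it was higher in KO, with a WT to KO ratio of 0.781. H3K27ac at 52210090 had 757 WT reads and 235 KO reads (3.22, 2.76 to 3.76), and at 52204130 it had 1357.5 and 662 (2.05, 1.86 to 2.26). The latter stood at 7.63 times background, the expected reads, in WT and 2.70 times in KO, so both genotypes were above it there. At 52210090 the KO reads were 0.958 times background and the WT reads 4.25 times.

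On the 3' side of HoxA, towards the genes of low number, 1 event was listed. H3K27ac at 52138544, 136 kb from the 5' edge, had 409 KO reads and 237 WT reads, a ratio of 1.73 in favour of KO (1.48 to 2.02). Relative to own background the ratio was 1.16. It fell short of 2-fold, a size that 74.0% of the H3K27ac events of the series reached in favour of KO. It was the only H3K27ac event of the windows that was higher in KO, a direction taken by 82.5% of the H3K27ac events of the series.

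HoxD ran in the other direction. Its 2 events were H3K4me3 events higher in KO, a direction taken by 11.8% of the H3K4me3 events of the series. At 74510963, 26.0 kb from the 5' edge and so towards Hoxd13, which like Hoxa13 acts in the hand and foot, there were 259 KO reads and 114 WT reads (2.28, 1.69 to 3.12). At 74550023 there were 258 and 68.7 reads (3.76, 2.60 to 5.61), and this position lies at the midpoint, 65.0 kb from the edge, so that its side is a matter of a few bases. In KO these events stood at 1.78 and 1.77 times background and in WT at 0.491 and 0.296 times. Here too, being above background in the higher genotype may be a condition of listing. No H3K27ac event was listed within 378 kb of the HoxD window and no H3K36me3 event within 1130.3 kb.

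HoxB had no listed event of any mark in 200 kb. The nearest events were higher in KO and lay below the window, at 166 kb for H3K27ac, 177 kb for H3K4me3 and 179.8 kb for H3K36me3. Since the lists hold only events past the authors' q threshold, the empty window does not show that HoxB lacked these marks or that they were equal.

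**Figure D3:**
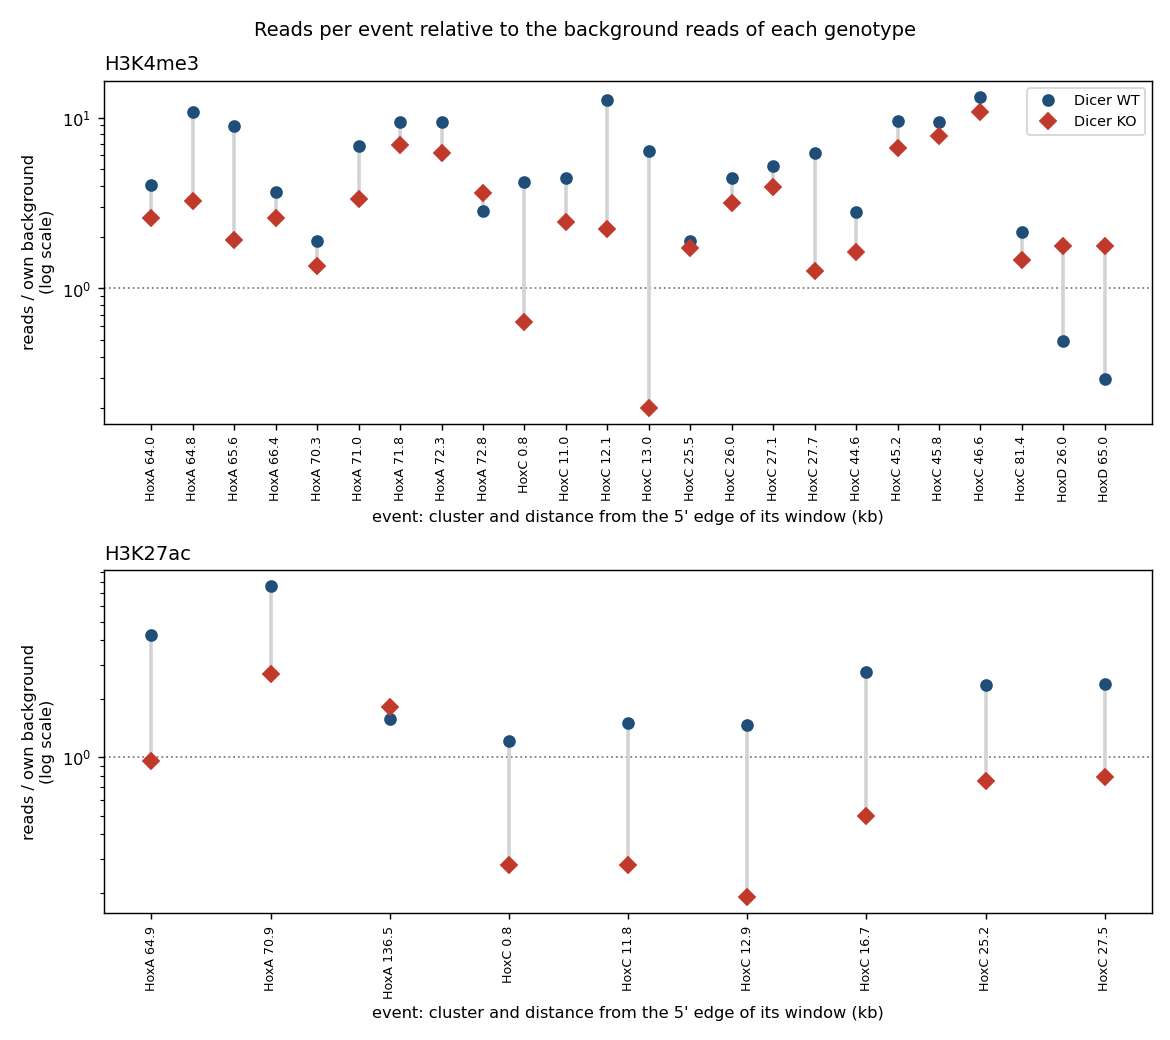
Reads of each event divided by the background reads of the same genotype on its chromosome (y, log scale), with WT as circles, KO as diamonds and grey lines joining them, for H3K4me3 (top) and H3K27ac (bottom). Events are ordered by cluster and distance from the 5' edge (x labels, in kb), there is 1 value per genotype without error bars, and the dotted line is background. The higher genotype of the list is above 1 at every event. All 6 H3K27ac events of HoxC are below 1 in KO and above 1 in WT, H3K4me3 in KO is below 1 at 2 events of HoxC, and both HoxD events are below 1 in WT.

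The comparison of 5' with 3' sides followed from these positions. Of the WT-higher events, 8 of 8 for H3K27ac, 21 of 22 for H3K4me3 and 10 of 10 for H3K36me3 lay on the 5' side. The KO-higher events were 1 on the 3' side of HoxA, 1 on the 5' side of HoxD and the midpoint event of HoxD. The imbalance rested on HoxC and HoxA alone. The HoxA stretch lies in the inner part of the 5' side of its window. The outermost 33.3% of the windows at either end thus held 9 H3K4me3 events higher in WT, all of HoxC and all at the 5' end, and none at the 3' end. The flank between window edge and outermost gene was not measured in mm9 and may differ between clusters. These counts therefore describe window positions and not closeness to the 5'-most genes.

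The H3K4me3 differences depended on the scale. As listed, the 22 WT-higher H3K4me3 events had a median ratio of 2.54, against 3.01 for all WT-higher events of the mark, and relative to own background it was 1.48, against 1.49. On the background scale 7 of 22 were still at least 2-fold higher in WT, against 30.2% of the list. These 7 were the events at 102740775, 102752120, 102752989 and 102767653 of HoxC and at 52203962, 52209435 and 52210220 of HoxA. For H3K27ac the background scale enlarged the WT-higher ratios, from a median of 3.30 to 4.41, and 8 of 8 remained at least 2-fold higher, against 97.2% of the list. In the lists as a whole the H3K27ac medians were 3.86 and 4.69. The median H3K36me3 ratio of HoxC was 8.39, against 3.62 for all WT-higher events of that mark.

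**Figure D4:**
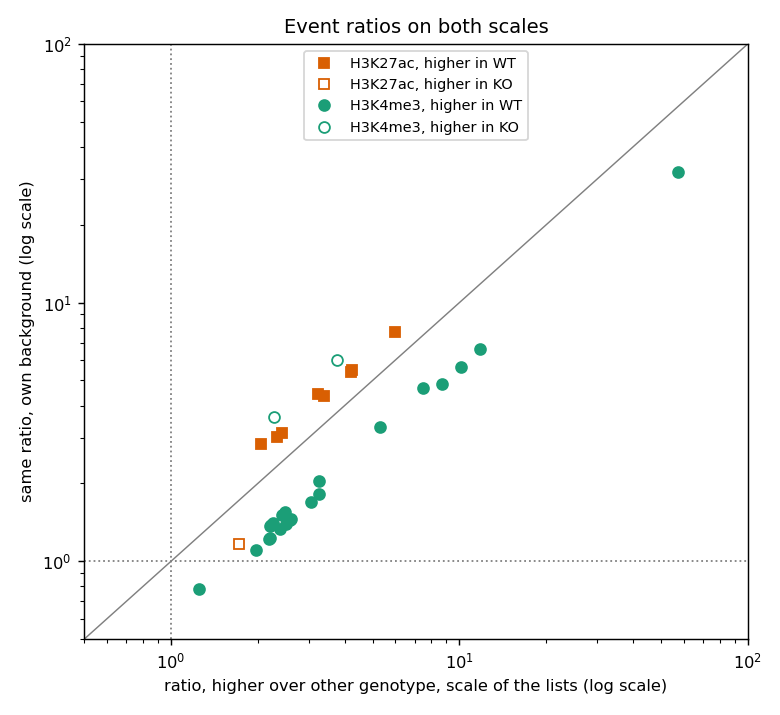
Ratio of the higher to the other genotype for each H3K4me3 (circles) and H3K27ac (squares) event of the Hox windows, at the scale of the lists (x, log scale) and relative to the background reads of each genotype (y, log scale), with filled symbols higher in WT, open symbols higher in KO, and the diagonal marking equal values. WT-higher H3K4me3 lies below the diagonal, from 0.781 to 31.9 on the y axis, and WT-higher H3K27ac above it, from 2.83 to 7.73.

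Some lists name a short sequence, a k-mer, for an event, which is printed here because it is the sequence the authors' software attached to the Hox events themselves. CCCCCGGT stood beside the H3K4me3 events at 102740775 and 102785163, and CGCCCGGT beside that at 102821352. In the WT-higher H3K4me3 list these k-mers were given to 1.95% and 2.51% of events. GTTGTGTG stood beside the H3K36me3 event at 102801727, as at 1.80% of the events of its list. The other 19 H3K4me3 events higher in WT and 9 H3K36me3 events had none.

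Of the 38 genes, 22 had a promoter in the RefSeq table used (GRCm38.p6), with 24 promoters of 300 bases (250 before to 50 after the start). By cluster they were 10 of HoxA, 3 of HoxB, 10 of HoxD and only 1 of HoxC, that of Hoxc4. All events with a k-mer lay in HoxC, so the promoter values below say little of that cluster. On either strand, CGCCCGGT occurred in 1 of these 24, a promoter of Hoxd11, and in 0.861% of all 32851 promoters, and CCCCCGGT and GTTGTGTG occurred in 0 of 24 and in 0.661% and 0.931% of all. H3K4me3 is known to gather at promoters rich in CpG, and the Hox promoters had a median of 14.5 CpG, against 7 over all promoters. The promoters of Hoxa13 (minus strand) and Hoxd13 (plus strand) are shown with CpG in capitals, since they are the 5'-most genes of a cluster with H3K4me3 events higher in WT and of a cluster with such events higher in KO. They hold 45 and 37 CpG, more than 98.1% and 94.4% of all promoters, and a GC content of 81% and 74.3%. No event was assigned to them.
Hoxa13: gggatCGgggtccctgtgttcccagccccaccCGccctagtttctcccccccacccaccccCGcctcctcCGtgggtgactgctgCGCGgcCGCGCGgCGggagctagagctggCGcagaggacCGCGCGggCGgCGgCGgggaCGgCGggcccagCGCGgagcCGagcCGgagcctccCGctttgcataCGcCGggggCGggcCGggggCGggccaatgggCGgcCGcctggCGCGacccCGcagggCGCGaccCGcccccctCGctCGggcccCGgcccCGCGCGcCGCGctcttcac
Hoxd13: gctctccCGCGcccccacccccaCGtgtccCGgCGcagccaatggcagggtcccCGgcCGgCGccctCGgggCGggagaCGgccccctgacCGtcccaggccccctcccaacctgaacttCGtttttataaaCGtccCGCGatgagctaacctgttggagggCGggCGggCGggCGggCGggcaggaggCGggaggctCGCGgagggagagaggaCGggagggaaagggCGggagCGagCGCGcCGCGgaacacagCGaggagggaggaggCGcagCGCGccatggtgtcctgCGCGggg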

How the data were processed

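The submitters' processing notes list mm9 and TopHat 1.4, with no role for either. The lists come from the event callers GPS (both H3K27ac lists, H3K36me3 of KO) and GEM (the other 3), per the file headers and names. Each deposited event has an estimated count of the higher genotype, a scaled signal of the other, their ratio, a signal column headed by the word expected, abbreviated (its meaning is taken from that name and its values) and a −log10 q value of at least 2. H3K27ac replicates were pooled, per the file names, and pooling is not stated for the other marks. The callers' versions were not given in the sources used here. Total depth is unknown, so reads per event set the precision.

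Scale factors of the lower genotype were searched from 0.3 to 3, every 0.0005, for the one whose whole multiples fitted most of its values up to 60, within 0.06. For the lists of WT it was 1.09 (H3K27ac), 0.461 (H3K4me3) and 1.70 (H3K36me3), and for those of KO 0.85, 2.15 and 0.575. Only values above 0 beside a whole count of the higher genotype were used, 236 to 1831 per list. Of these, 83.1% to 96.5% were whole multiples of the factor found. Ratios are the estimated count over scaled reads, summed over the events of a group. Intervals are exact conditional binomial (Clopper-Pearson) on unscaled reads, which are not independent molecules. Own background means each genotype's unscaled reads over its expected reads, which the H3K27ac and H3K4me3 lists give as 1 value per chromosome. The script was tested on simulated data. Software was Python 3.11.15 with SciPy 1.17.1, pandas 2.3.3, matplotlib 3.10.9 and NumPy 2.4.6.

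Members and lists were chosen with earlier results of these data known. Events named were all those of a cluster, mark and direction with at most 4 events, otherwise the 2 with the largest −log10 q, the 1 with the largest ratio and the 1 with most reads, and merged regions of at least 3 events. Other events named were chosen after their values were seen. Hox cofactor, Polycomb, Trithorax and cell type marker lists were not used here, for want of positions in mm9.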

Additional observations from a re-analysis of the deposited data

How the results depend on the processing

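Each setting was applied alone. Merged within 5 kb, events higher in WT became 5 regions for H3K27ac (3 in HoxC), 6 for H3K4me3 (1 in HoxA, 5 in HoxC) and 3 for H3K36me3, with 5, 5 and 3 on the 5' side. At a −log10 q of at least 5, 4 H3K36me3 events remained. At least 2-fold apart, 0 H3K27ac events were higher in KO, and windows widened by 50 kb held 2. Relative to own background, a count added after seeing the data, events at least 2-fold apart were 7 of H3K4me3 higher in WT (3 in HoxA, 4 in HoxC) and 0 of H3K27ac higher in KO. On that scale the ratios were 1.16 for H3K27ac higher in KO in HoxA, 3.25 and 4.18 for H3K27ac higher in WT in HoxA and HoxC, 1.81 and 1.88 for H3K4me3, and 4.51 for HoxD, and the H3K4me3 event at 52202223 reversed to 0.781. The cause was not tested. Medians of single events were 2.64 and 3.79 for H3K27ac and 2.42 and 2.61 for H3K4me3 in HoxA and HoxC.

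On the 5' side, H3K4me3 events higher in WT numbered 9 in the outermost 33.3% and 8 in the outermost 25% of each window, 12 without HoxA and 9 without HoxC, and on the 3' side 0 in both and without HoxC. Without HoxC, 2 H3K27ac and 0 H3K36me3 events were on the 5' side. Within 500 bp, 8 H3K4me3 events had H3K27ac of the same direction. With 1 read added, 43 of 43 event ratios stayed in their intervals. This is a weak check, since the H3K36me3 ratio at 102758295 fell from 60.8 to 30.7 and still lay in its wide interval. No paired analysis was possible because each mark has a single value for WT and for KO, which also left no replicate to omit. No own background scale was run for H3K36me3, whose low reads limit its ratios most.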

Other observations

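Outside the windows, within 50 kb, 3 further events were listed, all of H3K27ac. Below the 5' edge of HoxC, H3K27ac at 102692216 had 477 WT and 167 KO reads (ratio 2.85, 2.37 to 3.44), and at 102695811 it had 422 and 138 (3.06, 2.5 to 3.77), so the WT-higher acetylation of HoxC had like-directed neighbours 44.2 kb or more beyond its 5' edge. Beyond the 3' edge of HoxA, by 6.55 kb, H3K27ac at 52088448 was higher in KO, with 276 KO and 92.6 WT reads (2.98, 2.38 to 3.75), the same direction as the event at 52138544 within the window. Relative to own background it was 2.01-fold higher in KO.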
